A study of Mus musculus with 15 samples.

Results

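Stella-eGFP+ primordial germ cell-like cells on day 6 of induction (D6PGCLCs) were compared with those on day 2 (D2PGCLCs) over all genes, with 3 samples of each day, 6 of the 15 samples of the series. The other samples were 3 each of naive ESCs in 2i and LIF, of EpiLCs and of day 4 PGCLCs (D4PGCLCs). All 6 samples came from mouse ESCs with a Stella-eGFP reporter and 4 transgenes under doxycycline (Dox) control, those of *Nanog*, *Prdm1*, *Prdm14* and *Tfap2c* (4TF). The ESCs were taken to epiblast-like cells (EpiLCs) with Activin A and bFGF, then aggregated in GK15 medium with Dox from day 0, which D2PGCLCs and D6PGCLCs therefore share. Lines of this system were derived as clones, and cells without the eGFP signal are not in either group. For the 4 factors, the counts mix transcripts of transgene and endogenous gene. Nothing in the sources says that the samples of a day came from separate cultures, so the p-values measure the spread between these samples.

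Primordial germ cells (PGCs) are the embryonic precursors of eggs and sperm. After specification they keep many pluripotency genes active while they erase DNA methylation. Once in the gonad they switch on a germline program. It includes RNA-binding proteins such as DAZL and DDX4, the PIWI-interacting RNA (piRNA) pathway that silences transposons, and genes that prepare for meiosis. Many promoters of these germline genes are held silent in other cells by DNA methylation and by the Polycomb complex PRC1.6.

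Sequences of 5 promoters are shown because these germline genes were among those with the largest differences between the days. Each run holds the 250 bases before the RefSeq start on the strand of the gene (GRCm38.p6, the build of mm10). In the first 4, taken as the 4 largest differences among the germ cell, meiosis and piRNA genes with a mean of at least 100 counts, the capitals mark CG dinucleotides, the sites of DNA methylation. *Stra8* lies at chr6:34920698-34920947 (plus strand), *Asz1* at chr6:18109062-18109311 (minus strand), *Dazl* at chr17:50293621-50293870 (minus strand) and *Gtsf1* at chr15:103430428-103430677 (minus strand).
Stra8: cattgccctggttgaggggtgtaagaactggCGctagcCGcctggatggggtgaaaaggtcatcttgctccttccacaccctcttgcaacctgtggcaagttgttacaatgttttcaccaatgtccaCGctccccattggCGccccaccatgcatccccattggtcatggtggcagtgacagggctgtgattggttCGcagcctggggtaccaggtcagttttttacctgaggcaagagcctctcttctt
Asz1: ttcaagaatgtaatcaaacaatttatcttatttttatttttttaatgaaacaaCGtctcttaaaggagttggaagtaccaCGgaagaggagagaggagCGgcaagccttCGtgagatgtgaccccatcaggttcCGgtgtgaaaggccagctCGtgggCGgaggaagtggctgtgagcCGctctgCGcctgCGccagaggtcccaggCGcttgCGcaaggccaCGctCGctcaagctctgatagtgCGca
Dazl: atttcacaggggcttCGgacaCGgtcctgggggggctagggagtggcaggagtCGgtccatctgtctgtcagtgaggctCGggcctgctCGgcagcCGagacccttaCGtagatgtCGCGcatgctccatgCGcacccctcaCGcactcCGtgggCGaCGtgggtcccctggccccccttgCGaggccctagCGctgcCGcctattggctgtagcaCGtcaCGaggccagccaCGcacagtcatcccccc
Gtsf1: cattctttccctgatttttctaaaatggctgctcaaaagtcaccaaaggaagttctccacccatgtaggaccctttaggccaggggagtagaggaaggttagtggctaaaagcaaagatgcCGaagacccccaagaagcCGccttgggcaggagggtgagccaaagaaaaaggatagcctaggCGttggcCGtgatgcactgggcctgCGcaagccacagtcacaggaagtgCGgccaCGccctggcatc
The window of *Dazl* held 20 CG dinucleotides, that of *Asz1* 15, that of *Gtsf1* 7 and that of *Stra8* 5. The median was 6 over the 27018 genes with such a window and 16 over the tested genes with one. The RefSeq start of *Stra8* is 785 bases from its GENCODE start, so this window may miss the promoter in use. CACGTG, the E-box to which MGA and MAX of PRC1.6 bind, and TTCCCGC, an E2F motif, were searched on both strands and stood in none of these 4 windows. Over all windows, 6.86% held CACGTG and 4.38% TTCCCGC. Of the 36 genes of the germ cell, meiosis and piRNA lists that were higher in D6PGCLCs, 33 had a window, and CACGTG stood in 12 and TTCCCGC in 6 of these. Of the 52 tested members of the same lists that were not called, 39 had a window, and CACGTG stood in 11 and TTCCCGC in 7 of these. The motifs were thus present in members of these lists whether or not they were called, and over all tested genes with a window CACGTG stood in 9.55%. Among the higher genes with CACGTG is *Slc25a31* (chr3:40708621-40708870, plus strand), an ADP/ATP carrier of male germ cells, chosen after its values were seen as the one with the largest difference; here the capitals mark CACGTG, 93 bases before the start.
Slc25a31: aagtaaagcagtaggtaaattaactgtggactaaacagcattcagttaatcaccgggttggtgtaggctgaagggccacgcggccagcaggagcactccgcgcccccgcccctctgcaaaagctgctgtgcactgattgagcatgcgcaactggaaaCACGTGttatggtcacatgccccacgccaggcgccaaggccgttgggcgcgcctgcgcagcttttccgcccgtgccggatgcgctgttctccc
A match is a description of the sequence and does not show that a factor binds there.

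The totals of counted reads ran from 28907803 to 34808685 in D2PGCLCs and from 32530096 to 42725681 in D6PGCLCs. D6PGCLC replicate 1 stood apart from all other samples at the low end of expression. It had 796 genes with 1 to 5 counts, against 4517 to 5974 in the 14 other samples, as the plot of low counts shows. Of the 14529 genes with at least 20 counts in both other D6PGCLC samples, 170 were at 0 in replicate 1, whereas the same check gave 0 to 2 genes in the other samples. Because of this deficit, many low genes are given below with the value of each sample, and several counts of genes with and without replicate 1. Other low genes are given by fold change alone. Named genes that lost their call without replicate 1 are listed in the section on processing. Mitochondrial genes took 1.59% to 1.65% of counts in D6PGCLCs and 1.77% to 2.14% in D2PGCLCs. The label of the cells was checked against markers of PGCs. *Dppa3* (Stella), the gene of the sorted reporter, had 438, 482 and 436 CPM (counts scaled to library size, with TMM normalization) in the 3 D2PGCLC samples and 432, 472 and 522 CPM in the 3 D6PGCLC samples, with days that overlapped, against a mean of 85.2 CPM in EpiLCs. All 17 genes of an early PGC list were detected on both days. The list holds the 4 factors of the transgenes and *Dppa3*, so detection alone is a weak check of the label. It summed to 3533 to 3682 CPM in D2PGCLCs and 3006 to 3231 CPM in D6PGCLCs. The sums were 1645 to 1714 CPM in ESCs and 1850 to 1973 CPM in EpiLCs.

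**Figure D1:**
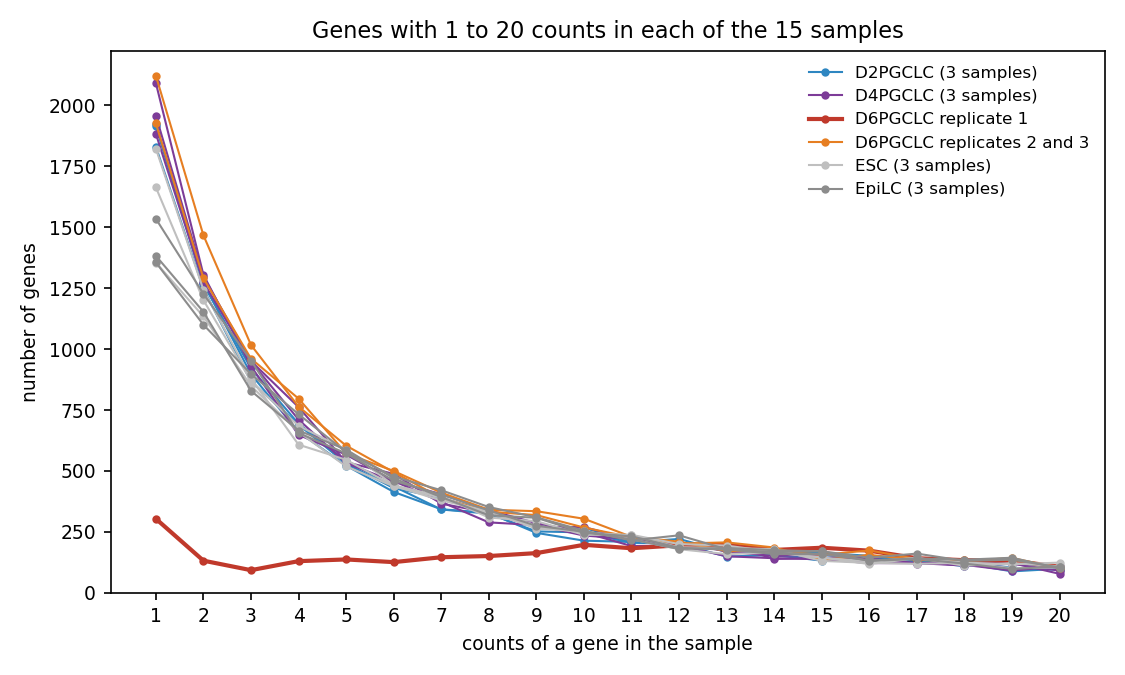
Number of genes (y axis) with exactly 1 to 20 counts (x axis), 1 line per sample, coloured by group. D6PGCLC replicate 1 lies far below the 14 other samples at low counts, with 304 genes at 1 count against 2122 in D6PGCLC replicate 3, and meets them at 12 counts.

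Of the 18090 genes tested with edgeR's quasi-likelihood test, 1965 were higher in D6PGCLCs than in D2PGCLCs and 497 were lower, 10.9% and 2.75% of the genes tested. To be called higher or lower, a gene had to pass an adjusted p of 0.05 (Benjamini-Hochberg) and differ by more than 1 on the log2 scale. Fold changes are log2 values of D6PGCLCs over D2PGCLCs throughout, followed by the standard error (SE) of the fit. Without D6PGCLC replicate 1, 1948 genes were higher and 424 lower, which included 1674 (85.2%) and 365 (73.4%) of the genes called with it. The higher genes were mostly low in D2PGCLCs, with a median of 0.721 CPM that became 2.61 CPM, and 51 of them had no count in any D2PGCLC sample. D4PGCLC means lay between those of days 2 and 6 for 94.1% of the higher and 91.3% of the lower genes. The median gene had covered 50.6% and 41.1% of its log2 change by day 4. The genes were chosen for a wide gap between days 2 and 6, so these shares do not show that each gene changed gradually. D4PGCLCs were not part of the contrast between the days. They did enter the filter on low counts, the scaling and the estimate of spread, on which the calls depend. A fit of the 6 samples alone called 83.3% of the higher and 68.0% of the lower genes again.

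**Figure D2:**
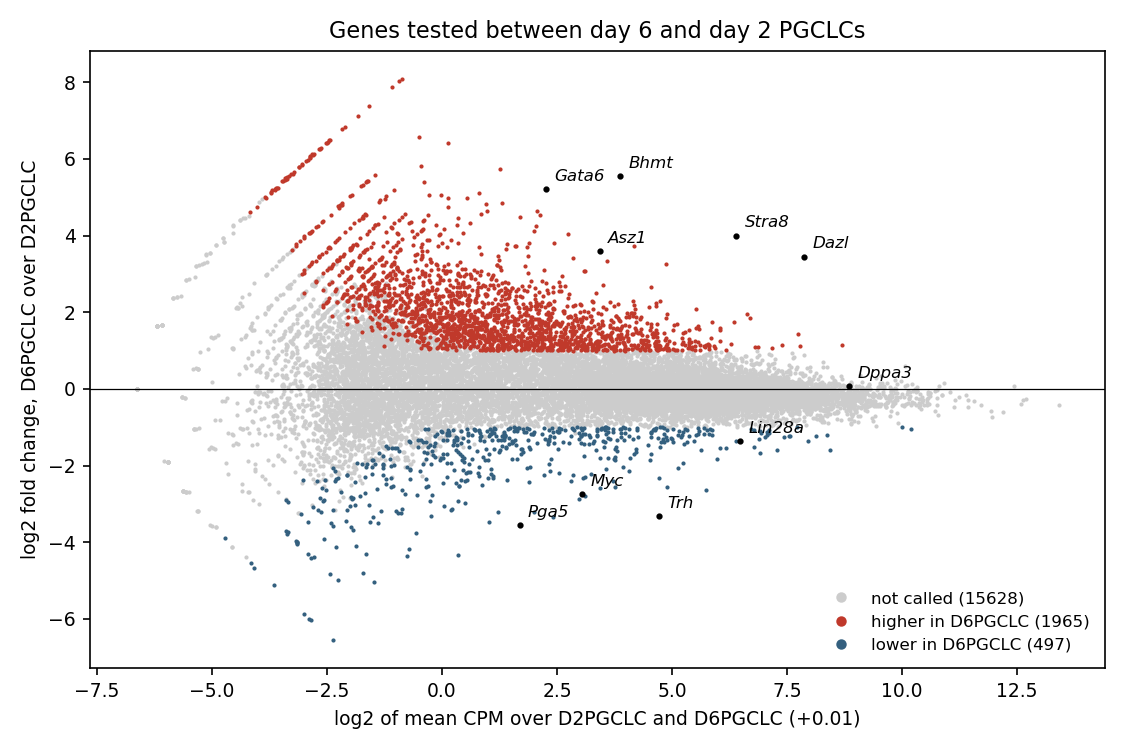
Log2 fold change of D6PGCLCs over D2PGCLCs (y axis) against the log2 of mean CPM over both days (x axis), 1 point per gene tested, with the 1965 higher genes in red, the 497 lower genes in blue and selected genes named. Most higher genes sit at low expression, and *Stra8* and *Dazl* combine a large fold change with a high level.

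Genes of later germ cells rose. Of 21 tested genes of the late germ cell list, 9 were higher and none was lower, with a median log2 fold change of 0.91 against 0.00 over all genes, and the same number was higher without D6PGCLC replicate 1. Some of its members had been shown for these samples by the study, so the list is not independent evidence of its direction. *Dazl*, which encodes an RNA-binding protein that licenses PGCs for gametogenesis, had 44.0, 28.1 and 45.2 CPM in D2PGCLCs and 459.6, 360.2 and 464 CPM in D6PGCLCs, a log2 fold change of 3.45 (SE 0.18, adjusted p = 5.5e-10). No D6PGCLC sample came near the D2PGCLC range, and D4PGCLCs lay between, at 211, 137 and 211 CPM. *Sohlh2*, a transcription factor of spermatogonia and oocytes, rose from 29.0, 29.9 and 39.6 to 96.0, 92.2 and 109.9 CPM, a fold change of 1.6 (SE 0.12, adjusted p = 3.7e-08). *Tuba3a*, a testis alpha-tubulin, rose from 44.3, 37.1 and 51.9 to 170.1, 167 and 148 CPM (1.86, SE 0.13, adjusted p = 8.0e-09), and *Tuba3b*, a near-identical copy that may share its reads, had a fold change of 3.72. Lower in level but also higher on day 6 were *Taf7l* (2.00) and *Brdt* (2.12), which encode a TFIID subunit and a bromodomain protein of spermatogenesis, *Slc25a31* (2.15), *Tex13b* (4.06), *Tex101* (2.46) and *Gata3* (1.23). *Slc25a31* had 1.56, 0.824 and 2.49 CPM and then 10.3, 5.42 and 6.21 CPM, so that its highest D2PGCLC sample was under its lowest D6PGCLC sample.

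Other genes of this list moved less or were nearly silent. *Ddx4*, the germ cell RNA helicase VASA, went from 28.9, 29.7 and 33.1 to 56.7, 51.7 and 64.2 CPM, a fold change of 0.91 (SE 0.12, adjusted p = 1.0e-05), under the limit of 1 although no sample overlapped. *Dmrt1* had 51.2, 52.0 and 59.4 and 87.4, 60.5 and 91.6 CPM (0.56, SE 0.14, adjusted p = 0.0041). *Nanos2*, which acts in male fetal germ cells, was at 0 in all D6PGCLC samples, and *Figla* and *Lhx8*, regulators of oocytes, had at most 4 counts in any of them. *Sohlh1* had 0.368, 0.0661 and 0.0850 CPM and *Zbtb16* (PLZF), a gene of undifferentiated spermatogonia, 0.920, 0.418 and 0.794 CPM in D6PGCLCs. Their differences from D2PGCLCs did not pass (adjusted p = 0.30 and 0.74).

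**Figure D3:**
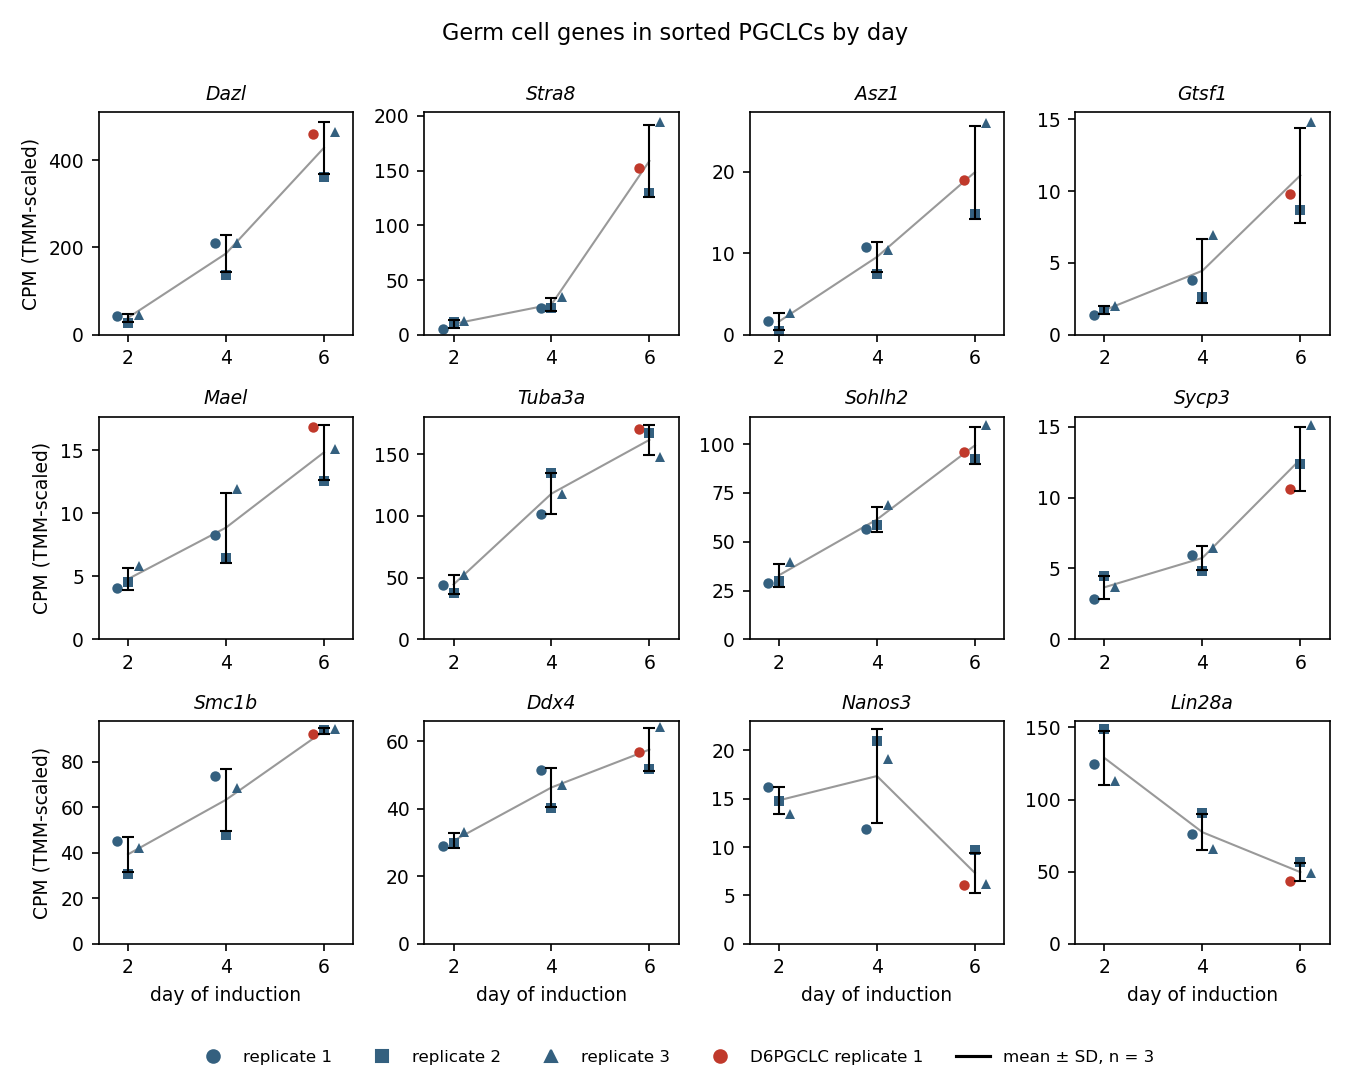
Level in TMM-normalized CPM (y axis, linear, from 0) of 12 germ cell genes by day of induction (x axis), with 1 symbol per sample, D6PGCLC replicate 1 in red, bars for the mean ± SD (n = 3) and a grey line through the means. *Dazl*, *Stra8* and *Asz1* have every D6PGCLC sample above every D4PGCLC sample, the mean of *Nanos3* drops only after day 4, and *Lin28a* falls on each day.

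Meiotic genes rose in part. Of the 43 genes of the meiotic prophase list, all tested, 13 were higher and none was lower (median 0.58). Without D6PGCLC replicate 1 the number higher was 9, since *Majin*, *Hormad1*, *Terb1* and *Syce3* were then not called. *Stra8*, the retinoic acid-induced gatekeeper of meiotic entry, had 5.61, 11.9 and 12.3 CPM in D2PGCLCs, 24.6, 24.4 and 34.1 CPM in D4PGCLCs and 153, 129.9 and 194 CPM in D6PGCLCs, a log2 fold change of 4.00 (SE 0.24, adjusted p = 1.9e-09). Every D6PGCLC sample was more than 10 times above every D2PGCLC sample, the largest difference of the list. Its partner *Meiosin* (*Gm4969* in the annotation) had 0.644, 0.466 and 0.900 and 1.73, 0.683 and 1.19 CPM, a difference of 0.83 (SE 0.48, adjusted p = 0.19) that did not pass.

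Of the synaptonemal complex, which joins homologous chromosomes, *Sycp1* rose from 10.6, 7.42 and 12.3 to 30.0, 21.8 and 32.2 CPM (1.46, SE 0.27, adjusted p = 3.2e-04). *Sycp3* rose from 2.85, 4.48 and 3.69 to 10.6, 12.4 and 15.1 CPM (1.79, SE 0.20, adjusted p = 2.5e-06). *Sycp2* rose from 1.84, 0.860 and 1.47 to 8.88, 3.06 and 6.86 CPM (2.16, SE 0.43, adjusted p = 6.8e-04). The low genes *Tex12* and *Syce3* were also higher, and *Syce1* (0.50) and *Syce2* (-0.11) did not pass. *Smc1b*, the meiotic cohesin subunit, rose from 45.1, 30.6 and 42.2 to 92.2, 94.0 and 94.3 CPM (1.25, SE 0.21, adjusted p = 1.4e-04). The cohesin genes *Rec8* (0.58, SE 0.15, adjusted p = 0.0056) and *Stag3* (0.55, SE 0.11, adjusted p = 8.0e-04) passed the test but not the fold limit. *Meioc*, which protects meiotic transcripts, *Meiob*, a DNA repair protein of recombination, and *Ankrd31*, a partner of the break machinery, rose with fold changes of 1.31, 1.79 and 1.37. *Spo11* and *Dmc1* were not called. *Spo11*, the break-making enzyme, had 0.337, 0.681 and 0.240 CPM and then 0, 0.264 and 0.170 CPM (-1.47, SE 0.85, adjusted p = 0.19). The recombinase gene *Dmc1* had 6.74, 8.46 and 6.09 and 10.1, 12.6 and 8.36 CPM (0.55, SE 0.18, adjusted p = 0.025).

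The piRNA and transposon defence list held the largest share of higher genes among the germline lists. Of 24 tested members, 14 were higher and none was lower (median 1.24), and 15 were higher without D6PGCLC replicate 1. *Asz1*, which holds piRNA factors at the mitochondrial surface, rose from 1.72, 0.502 and 2.67 to 19, 14.8 and 26.0 CPM (3.59, SE 0.39, adjusted p = 1.6e-06). *Gtsf1*, a PIWI cofactor, rose from 1.41, 1.76 and 1.98 to 9.80, 8.65 and 14.8 CPM (2.69, SE 0.31, adjusted p = 2.9e-06). *Piwil4* (MIWI2), the PIWI protein that directs DNA methylation of transposons in fetal male germ cells, rose from 0.245, 0.573 and 0.480 to 2.50, 2.77 and 1.90 CPM (2.47, SE 0.38, adjusted p = 6.5e-05). *Piwil2* (MILI) was already at 29.1, 17.5 and 29.8 CPM and reached 54.4, 55.7 and 60.9 CPM (1.16, SE 0.15, adjusted p = 1.0e-05). *Mov10l1*, the helicase that feeds piRNA precursors into the pathway, rose from 13.9, 11.6 and 13.8 to 40.5, 33.1 and 35.2 CPM (1.47, SE 0.14, adjusted p = 2.4e-07). *Gpat2*, *Fkbp6*, *Tdrkh*, *Mael*, *Tdrd7*, *Tdrd1*, *Tdrd9*, *Tex19.2* and *Kif17* were the other higher members, with fold changes of 1.09 to 3.22.

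The pathway did not move as a whole. The Tudor genes *Tdrd12* and *Tdrd5*, whose proteins act in piRNA amplification and processing, had fold changes of -0.83 (SE 0.10, adjusted p = 3.7e-06) and -0.44 (SE 0.14, adjusted p = 0.015). *Tdrd12* had 169, 176 and 170.4 CPM in D2PGCLCs and 92.7, 112 and 85.1 CPM in D6PGCLCs. *Rnf17*, *Tex19.1* and *Pnldc1* were within 0.32 of no change. *Spocd1*, an effector of piRNA-directed methylation, was at 0 in all D6PGCLC samples, and *Dnmt3c*, the methyltransferase of young transposons, had at most 5 counts in any of them.

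Early PGC genes were kept or slightly lower. None of the 17 early PGC genes was higher and 3 were lower (median -0.43), and 10 had all D6PGCLC samples under all D2PGCLC samples, which held for 23.3% of all genes tested. *Kit*, the receptor for KIT ligand on PGCs, had 299.9, 283 and 274 CPM in D2PGCLCs and 305, 283 and 288 CPM in D6PGCLCs (0.03, SE 0.11, adjusted p = 0.84). *Itgb3*, a surface integrin used to sort PGCLCs, was at 130.1, 112 and 132 and 139, 125 and 135 CPM (0.09, SE 0.09, adjusted p = 0.45). Among the 4 factors of the transgenes, *Nanog* changed by -0.19 (SE 0.11, adjusted p = 0.16) and *Prdm14* by -0.38 (SE 0.10, adjusted p = 0.0078). The values were -0.52 (SE 0.07, adjusted p = 2.4e-05) for *Tfap2c* and -0.83 (SE 0.11, adjusted p = 9.5e-06) for *Prdm1*. *Prdm1*, for BLIMP1, thus fell from 114, 101 and 103 to 60.4, 62.0 and 56.4 CPM with no overlap between days, within the fold limit. The genes called lower were *Lin28a*, an RNA-binding protein that blocks let-7 maturation, at 125, 149 and 113 and then 43.8, 56.5 and 48.8 CPM (-1.37, SE 0.12, adjusted p = 1.2e-07), and *Dnd1* and *Nanos3*. The last are partners in protecting PGC mRNAs, with fold changes of -1.02 (SE 0.13, adjusted p = 9.9e-06) and -1.01 (SE 0.24, adjusted p = 0.0026). The D4PGCLC levels of *Dnd1* (45.3, 40.4 and 49.4 CPM) were no lower than those of D2PGCLCs (38.7, 40.5 and 35.5 CPM), and D6PGCLCs had 17.3, 17.7 and 21.6 CPM. *Dnd1* and *Nanos3* lie close to the fold limit and were not called without D6PGCLC replicate 1.

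Of the 11 genes of DNA methylation, none was called in either direction. *Dnmt1* had 511, 490.5 and 477 and 441, 451 and 451 CPM (-0.14, SE 0.08, adjusted p = 0.18). Its cofactor *Uhrf1* had 287, 267 and 287 and 279.9, 304 and 254 CPM (-0.01, SE 0.10, adjusted p = 0.97). *Tet3*, an enzyme that oxidizes methylcytosine, had the largest difference, from 9.16, 7.63 and 9.75 to 14.1, 18.8 and 17.4 CPM (0.92, SE 0.14, adjusted p = 4.0e-05), and was called higher without D6PGCLC replicate 1. Among the 13 genes of PRC1.6, *Yaf2* was higher (1.11, SE 0.17, adjusted p = 5.3e-05) and none was lower. Of the 13, 8 had all D6PGCLC samples under all D2PGCLC samples, which held for 23.3% of all genes tested. *E2f6*, its DNA-binding E2F protein, had 33.3, 39.3 and 39.7 CPM and then 25.9, 25.7 and 25.6 CPM (-0.54, SE 0.09, adjusted p = 1.4e-04). *Pcgf6* had 96.0, 97.5 and 97.0 and 68.9, 65.6 and 69.6 CPM (-0.51, SE 0.08, adjusted p = 6.6e-05). *L3mbtl2* had 223, 213 and 221 and 135, 161 and 145 CPM (-0.57, SE 0.09, adjusted p = 9.0e-05). These decreases passed the test and stayed within the fold limit.

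Of 9 core pluripotency genes tested, none was higher and 1 was lower (median -0.38). Of the 9, 7 had all D6PGCLC samples under all D2PGCLC samples, which held for 23.3% of all genes tested. The summed level of the core list was 4673 to 4857 CPM in D2PGCLCs and 3506 to 3868 CPM in D6PGCLCs. It was lower in every D6PGCLC sample, with 8 of the 9 genes within the fold limit. *Pou5f1* (OCT4) had 944, 1033 and 1049.8 and 771, 871 and 826 CPM (-0.30, SE 0.09, adjusted p = 0.013). *Sox2* had 465, 478 and 481 and 339.7, 403 and 393 CPM (-0.33, SE 0.08, adjusted p = 0.0041). In the naive list, 3 of 16 genes were higher and 1 lower. *Tbx3* rose from 18.4, 17.8 and 16.5 to 75.7, 65.7 and 82.7 CPM (2.09, SE 0.10, adjusted p = 1.8e-10), against an ESC mean of 155 CPM. *Klf4* rose from 6.16, 6.27 and 5.55 to 22.7, 14.3 and 20.4 CPM (1.67, SE 0.15, adjusted p = 2.2e-07), against an ESC mean of 173 CPM. *Tdh*, a threonine-catabolizing enzyme of mouse ESCs, fell from 532, 501 and 539 to 169, 169.7 and 181 CPM (-1.6, SE 0.07, adjusted p = 1.8e-10), with 6 samples that did not overlap between days. *Esrrb* had 649.5, 578 and 631 and 399, 429 and 400.4 CPM (-0.60, SE 0.08, adjusted p = 1.1e-05), a decrease within the fold limit. Of 15 genes of the formative and primed state, 5 were higher and 1 lower, and the 5 stayed under their EpiLC means. *Pou3f1* reached 9.51, 6.67 and 4.68 CPM (1.02, SE 0.24, adjusted p = 0.0023) against a mean of 184 CPM in EpiLCs. *Sox11* reached 5.20, 5.90 and 3.66 CPM (1.05, SE 0.20, adjusted p = 4.4e-04) against 56.6 CPM.

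**Figure D4:**
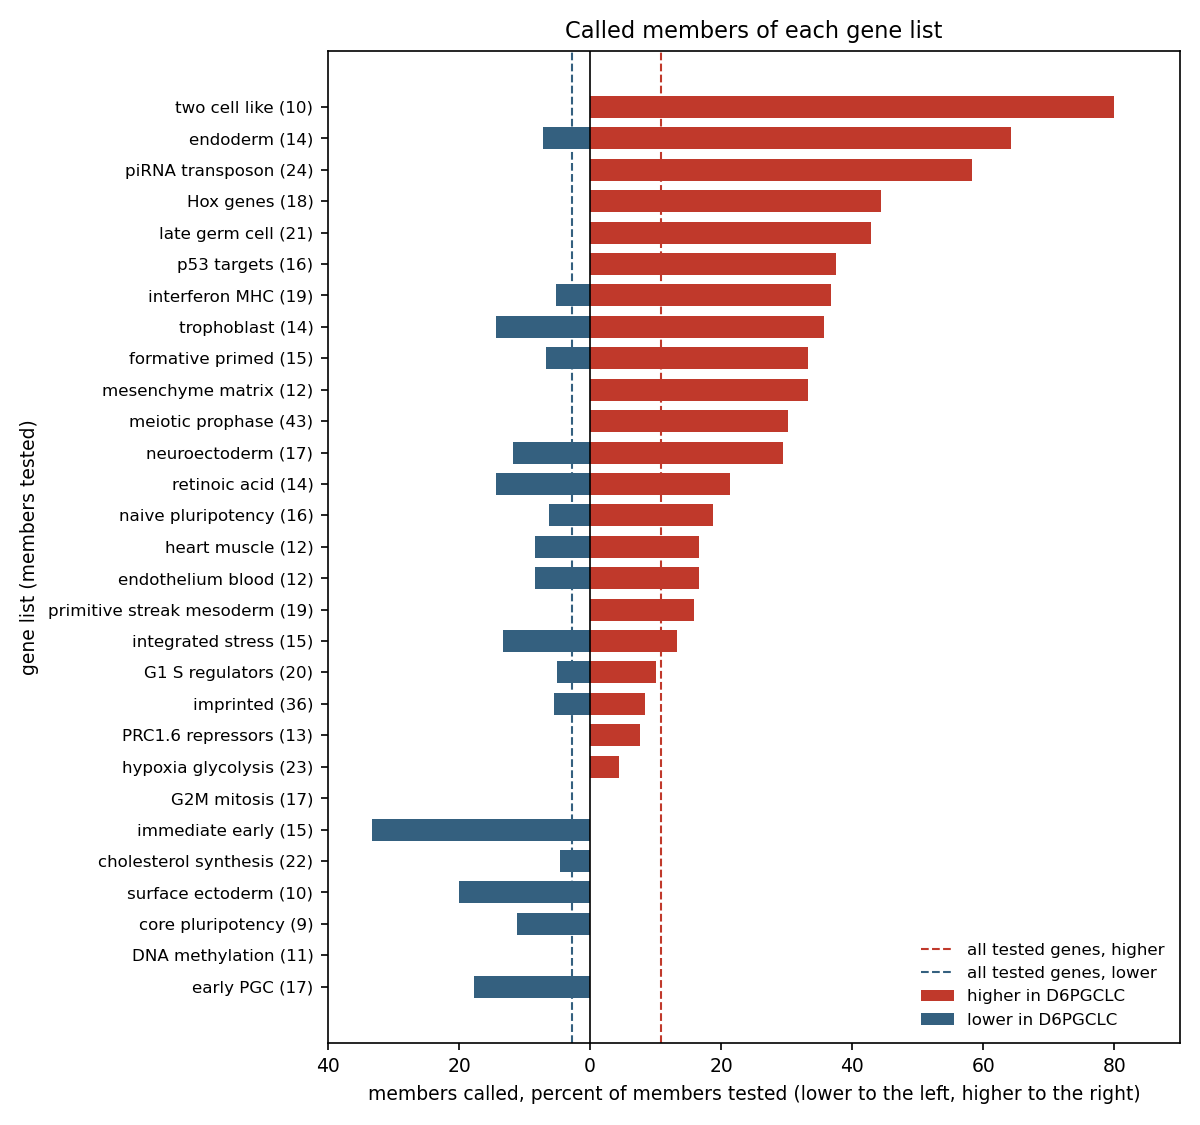
Share of the tested genes of each list (y axis, number tested in parentheses) that was higher (red, to the right) or lower (blue, to the left) in D6PGCLCs, in percent (x axis), with dashed lines at the shares over all genes, 10.9% and 2.75%. The 2-cell-like, endoderm and piRNA lists reach farthest to the right, and the immediate early list farthest to the left.

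Genes of other lineages were examined next, in lists of 10 to 19 tested genes each. Taking these with the Hox and 2-cell-like lists, 45 of 136 tested genes were higher and 9 lower, but 12 of the 45 had under 1 CPM on average in D6PGCLCs and only 7 had 10 CPM or more. Over all genes tested, 10.9% were higher and 2.75% lower. Listed genes with few counts in D2PGCLCs were tested only where another group was higher, so the shares are not like for like. In bulk samples, a small number of cells with a high level and many cells with a low level cannot be told apart, and the share of other cell types in these samples was not tested.

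The endoderm list had 9 higher genes of 14 tested and 1 lower (median 1.31), and 6 higher without D6PGCLC replicate 1, where *Dab2* and *Lama1* were among those that no longer passed. *Gata6*, the transcription factor that starts primitive endoderm, rose from 0.398, 0.215 and 0.120 CPM through 2.12, 1.78 and 1.52 CPM on day 4 to 14.1, 5.66 and 7.99 CPM (5.22, SE 0.51, adjusted p = 5.7e-07). All D6PGCLC samples were above all D2PGCLC and D4PGCLC samples, with D6PGCLC replicate 1 the highest. Several other endoderm regulators rose from a lower level. *Sox17* went from 0.215, 0.215 and 0.150 to 0.920, 1.28 and 1.64 CPM (2.71, SE 0.47, adjusted p = 2.0e-04) and *Foxa1* from 0.276, 0.251 and 0.180 to 2.55, 1.56 and 1.90 CPM (3.07, SE 0.47, adjusted p = 5.5e-05). *Gata4* and *Hhex* had fold changes of 1.97 and 1.6, with 1.89, 2.07 and 1.87 CPM and 7.09, 5.46 and 5.47 CPM in D6PGCLCs. *Hnf4a* had 1.81, 0.396 and 0.255 CPM in D6PGCLCs, with replicate 1 far above the others, and at most 3 counts in any D2PGCLC sample (adjusted p = 0.0012). Further genes of the list did not follow, among them the regulator *Foxa2*. *Alb*, *Ttr* and *Spink1*, which encode secreted proteins of liver, visceral endoderm and pancreas, were at 0 in all 9 PGCLC samples. In D6PGCLCs, *Cer1* was at 0 and *Afp* and *Foxa2* had at most 3 counts. *Amn*, a visceral endoderm receptor subunit, fell (-3.76, SE 0.86, adjusted p = 0.0022). Summed over all 20 listed genes, endoderm markers reached 45.4 to 65.4 CPM in D6PGCLCs and 21.8 to 30.1 CPM in D2PGCLCs. ESCs had 40.5 to 45.8 CPM and EpiLCs 25.6 to 33.6 CPM, so the lowest D6PGCLC sample lay within the ESC range.

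**Figure D5:**
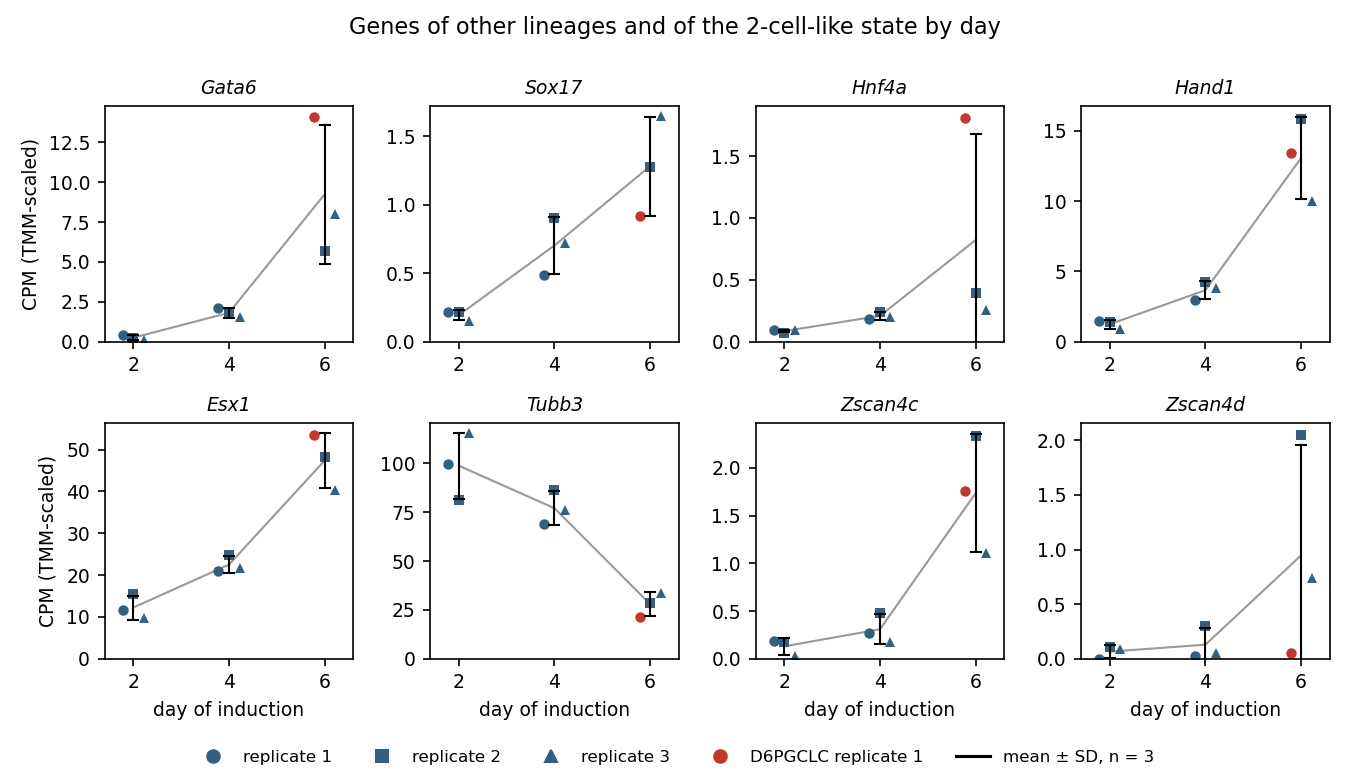
Level in TMM-normalized CPM (y axis, linear, from 0) of 8 genes of other lineages and of the 2-cell-like state by day of induction (x axis), with 1 symbol per sample, D6PGCLC replicate 1 in red, bars for the mean ± SD (n = 3) and a grey line through the means. *Gata6* and *Hand1* climb on each day, *Tubb3* is lowest on day 6, and the day 6 means of *Hnf4a* and *Zscan4d* are each pulled up by a single sample.

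In the trophoblast list, 5 of 14 genes were higher and 2 lower. *Hand1*, a transcription factor of trophoblast giant cells and lateral mesoderm that stands in both lists, rose from 1.44, 1.40 and 0.870 to 13.4, 15.8 and 9.98 CPM (3.40, SE 0.30, adjusted p = 1.4e-07). *Esx1*, a homeobox gene of placenta and testis germ cells, rose from 11.6, 15.4 and 9.81 to 53.6, 48.2 and 40.3 CPM (1.95, SE 0.15, adjusted p = 4.2e-08). *Gcm1* and *Gata2* fell (-1.08 and -1.17), and *Cdx2* had 0.342, 0.110 and 0.198 CPM in D6PGCLCs. *Tpbpa*, *Synb*, *Prl3d1* and *Prl3b1*, genes of mature trophoblast, were at 0 in all PGCLC samples. Of 19 genes of primitive streak and mesoderm, 3 were higher (15.8%), near the 10.9% over all genes tested. They were *Hand1*, *Cdx1* (2.55, SE 0.37, adjusted p = 3.1e-05) and *Pdgfra* (1.81, SE 0.45, adjusted p = 0.0037). *T* (Brachyury) had 0, 0.0440 and 0.0283 CPM and *Mixl1* 0, 0.0661 and 0.454 CPM in D6PGCLCs. Summed over 21 genes, this list ran from 69.8 to 106 CPM, against 89.4 to 99.9 CPM in D2PGCLCs.

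The neuroectoderm list split, with 5 of 17 genes higher and 2 lower. *Sox1*, *Lhx2* and *Dll1*, regulators of neural progenitors, rose with fold changes of 2.32, 1.91 and 1.42. *Sox1* reached 0.920, 0.661 and 1.45 CPM. *Nes* (nestin) rose from 18.1, 15.6 and 17.2 to 35.1, 31.9 and 35.6 CPM (1.01, SE 0.10, adjusted p = 7.1e-07). *Tubb3*, a neuronal beta-tubulin also present in ESCs (mean 81.8 CPM), fell from 99.5, 81.3 and 115 to 21.6, 28.7 and 33.6 CPM (-1.82, SE 0.15, adjusted p = 7.1e-08). The sum of the list was 98.8 to 118 CPM in D6PGCLCs and 134 to 163 CPM in D2PGCLCs, a decrease carried by *Tubb3*. Without *Tubb3* the sum was 77.3 to 89.0 CPM in D6PGCLCs and 47.6 to 53 CPM in D2PGCLCs, higher in every D6PGCLC sample. It stayed far under the 239 to 241 CPM of ESCs and the 249 to 273 CPM of EpiLCs. The remaining lists gave 2 of 12 genes higher for endothelium and blood, 2 of 12 for heart and muscle, 4 of 12 for mesenchyme and none of 10 for surface ectoderm, and 1, 1, none and 2 lower. For endothelium and blood and for heart and muscle the share higher was 16.7%, near the 10.9% over all genes tested. The heart and muscle count fell to 0 higher without D2PGCLC replicate 1. *Runx1* and *Mef2c* were each at 0 in 1 D6PGCLC sample, with 0, 0.352 and 0.624 CPM and 0.368, 0 and 0.0567 CPM. *Twist1* (1.88, SE 0.32, adjusted p = 1.5e-04), *Col5a1* (1.37, SE 0.18, adjusted p = 1.5e-05), *Col1a1* and *Vim* were the mesenchymal genes that rose. *Prrx1*, *Emcn* and *Hbb-bh1*, markers of limb mesenchyme, endothelium and embryonic red cells, were at 0 in all PGCLC samples.

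Genes of the 2-cell-like state had the largest share of higher members, 8 of 10 tested, with none lower (median 3.86) and 9 higher without D6PGCLC replicate 1. *Zscan4c*, a marker of that rare state of ESC cultures, had 0.184, 0.179 and 0.0300 CPM in D2PGCLCs and 1.76, 2.33 and 1.11 CPM in D6PGCLCs (3.72, SE 0.48, adjusted p = 1.1e-05). It stayed under the EpiLC mean of 9.27 CPM. Of the 13 listed genes, 10 passed the filter on low counts. A gene with few counts in D2PGCLCs passed it only through groups in which it is higher. Summed over the 13, the list had 0.510 to 0.788 CPM in D2PGCLCs and 5.36 to 15.0 CPM in D6PGCLCs. ESCs had 5.53 to 5.95 CPM and EpiLCs 38.5 to 57.8 CPM. The *Zscan4* genes are near-identical copies whose reads may be exchanged, *Zscan4d* had 0.0526, 2.05 and 0.737 CPM over the D6PGCLC samples, and *Duxf3*, the regulator of the state, was at 0 in all 9 PGCLC samples.

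Hox genes, which pattern the body axis, were higher in 8 of 18 tested cases and lower in none (median 2.49). Only 18 of 39 Hox genes passed the filter on low counts, and a gene with few counts in D2PGCLCs passed it only through groups in which it is higher. *Hoxb4* rose from 0.276, 0.251 and 0.360 to 3.60, 1.72 and 1.64 CPM (2.95, SE 0.47, adjusted p = 8.2e-05). *Hoxd9* rose from 0.123, 0.430 and 0.0900 to 1.97, 2.18 and 1.22 CPM (3.09, SE 0.58, adjusted p = 4.0e-04). *Hoxd13* and *Hoxb13*, at the 5′ ends of their clusters, had fold changes of 2.77 and 2.10. The whole family summed to 16.5 to 19.4 CPM in D6PGCLCs, 5.05 to 6.21 CPM in D2PGCLCs and 36.3 to 40.3 CPM in ESCs. In the retinoic acid list, 3 of 14 genes were higher and 2 lower. *Dhrs3*, which reduces retinal and is itself retinoic acid-induced, rose from 0.337, 0.466 and 0.480 to 1.50, 3.08 and 2.52 CPM (2.46, SE 0.41, adjusted p = 1.3e-04). *Stra6* and *Crabp2* rose, and *Rxrg* fell (-2.94, SE 1.03, adjusted p = 0.034), a call lost without D6PGCLC replicate 1. *Rarb* and *Cyp26a1*, direct targets of retinoic acid, did not pass (adjusted p = 0.97 and 0.42).

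Of 20 regulators of G1 and S phase, 2 were higher and 1 lower (median 0.08), near the shares over all genes. *Myc* fell from 15.2, 14.1 and 14.1 to 0.920, 3.99 and 1.39 CPM (-2.75, SE 0.34, adjusted p = 5.6e-06). *Mycn* fell from 194, 181 and 202 to 105, 90.6 and 106 CPM (-0.94, SE 0.08, adjusted p = 8.6e-08), within the fold limit. The immediate early list, genes switched on within minutes by growth factors or stress, had none higher and 5 of 15 lower (median -0.97). *Egr1* had 22.2, 21.5 and 11.8 CPM in D2PGCLCs, 4.00, 5.03 and 4.61 CPM in D4PGCLCs and 1.97, 4.76 and 2.41 CPM in D6PGCLCs (-2.57, SE 0.25, adjusted p = 5.8e-07). *Egr3* was at 0.153, 0.466 and 0.150 CPM and then at 0 in all D6PGCLC samples. *Fosb* (-3.06), *Atf3* (-1.69) and *Zfp36* (-1.04) were the other lower members, and *Fos* did not pass (0.15, SE 0.28, adjusted p = 0.72). None of 17 genes of G2 and mitosis was called, and *Mki67* had 438, 347 and 315 and 333, 382 and 329.8 CPM (-0.07, SE 0.14, adjusted p = 0.72). *Cdkn1a* (p21), an inhibitor of cyclin-dependent kinases, rose from 13.2, 16.4 and 19.4 to 55.2, 50.6 and 51.4 CPM (1.68, SE 0.14, adjusted p = 7.9e-08), as did *Cdkn2c*, for the related inhibitor p18 (1.41, SE 0.30, adjusted p = 0.0011). Of 16 p53 targets tested, 6 were higher and none lower (median 0.61), with 5 higher without D6PGCLC replicate 1 and 3 without D2PGCLC replicate 1. Examples are *Plk2* (1.98, SE 0.28, adjusted p = 2.3e-05), *Btg2* (1.39, SE 0.19, adjusted p = 1.7e-05) and *Phlda3* (1.06, SE 0.21, adjusted p = 6.1e-04).

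Replicate 2 of each day stood apart in glycolysis genes such as *Ldha*. *Ldha*, lactate dehydrogenase, had 238, 848 and 192 CPM in the 3 D2PGCLC samples, 242, 698 and 143 CPM in D4PGCLCs and 299, 610.4 and 170.1 CPM in D6PGCLCs (-0.24, SE 0.52, adjusted p = 0.75). Of 23 glycolysis and hypoxia genes only *P4ha2*, a collagen prolyl hydroxylase, was called (1.38, SE 0.16, adjusted p = 2.4e-06). *Chac1* and *Asns*, targets of ATF4 in the integrated stress response, were instead lowest in replicate 2 among both D2PGCLCs and D6PGCLCs. *Chac1* had 64.3, 19.6 and 86.5 CPM and then 12.1, 8.04 and 20.9 CPM (-2.06, SE 0.37, adjusted p = 2.5e-04). *Asns* had 1414, 982 and 1693 and 740.3, 576 and 718 CPM (-1.01, SE 0.14, adjusted p = 1.8e-05). What sets replicate 2 apart was not tested. Of the 15 genes of the integrated stress list, *Chac1* and *Asns* were lower, and the heat shock genes *Hspa1a* and *Hspa1b*, near-identical copies, were higher and no longer passed without D6PGCLC replicate 1. The number lower in this list rested on single samples, with 7 lower without D2PGCLC replicate 2, 5 without D6PGCLC replicate 3 and 1 when D2PGCLC replicate 1, D2PGCLC replicate 3 or D6PGCLC replicate 2 was left out. Of 22 cholesterol genes, only *Sqle*, squalene epoxidase, was called, from 161, 165 and 164 to 76.3, 77.0 and 76.2 CPM (-1.09, SE 0.06, adjusted p = 1.3e-09). Of the 22, 13 had all D6PGCLC samples below all D2PGCLC samples, which held for 23.3% of all genes tested. In the interferon and antigen presentation list 7 of 19 genes were higher and 1 lower, but only 3 were higher without D2PGCLC replicate 3. *Tap1*, a peptide transporter, rose from 0.919, 0.860 and 0.750 to 3.36, 3.21 and 6.29 CPM (2.34, SE 0.30, adjusted p = 9.8e-06). *Bst2* (tetherin) rose from 27.5, 32.2 and 26.4 to 67.4, 79.8 and 52.8 CPM (1.22, SE 0.17, adjusted p = 2.4e-05). *Ddx58* (RIG-I) fell from 53.7, 50.8 and 42.7 to 23.3, 22.4 and 18.5 CPM (-1.20, SE 0.12, adjusted p = 4.3e-07). Of 36 imprinted genes tested, *Dlk1*, *Ascl2* and *Meg3* were higher and *H19* and *Nnat* lower (median -0.03). These are 8.33% and 5.56%, against 10.9% and 2.75% over all genes tested, so the list as a whole did not stand out.

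Without regard to lists, the 15 highest and the 15 lowest fold changes were taken among the 904 protein-coding genes that were called, had a mean of at least 100 counts and showed no overlap between days. The highest was *Bhmt* (chr13:93616675-93637961, minus strand, mm10), betaine-homocysteine methyltransferase, which had 0.552, 0.896 and 0.390 CPM in D2PGCLCs, 3.73, 5.36 and 4.01 CPM in D4PGCLCs and 29.1, 30.1 and 26.2 CPM in D6PGCLCs (5.56, SE 0.28, adjusted p = 4.0e-10). Its neighbour *Dmgdh*, which breaks down dimethylglycine, the product of that reaction, had 0.153, 0.609 and 0.330 and 10.5, 7.95 and 6.52 CPM (4.54, SE 0.35, adjusted p = 3.9e-08). *Gata6* and *Stra8* followed from the lists, along with *Hal*, histidine ammonia-lyase, at 8.59, 7.84 and 7.17 CPM in D6PGCLCs (4.26, SE 0.34, adjusted p = 4.4e-08), and *Rhobtb1*, *Micall2*, *Dpep3*, *Myl3* and *Tuba3b*. X-linked were 5 of the 15: *Rhox2b* and *Rhox2c* of the reproductive homeobox cluster, *Gm15262*, *1700080O16Rik* and *4930550L24Rik*, with fold changes of 3.69 to 4.49.

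The lowest was *Pga5*, a pepsinogen, which fell from 5.18, 5.63 and 6.96 to 0.105, 0.881 and 0.482 CPM (-3.56, SE 0.67, adjusted p = 3.9e-04). *Trh*, thyrotropin-releasing hormone, fell from 45.2, 54.3 and 43.5 through 11.5, 18.1 and 9.08 to 3.89, 6.45 and 3.77 CPM (-3.32, SE 0.22, adjusted p = 5.4e-09) and had a mean of 453 CPM in ESCs. *P2rx3*, *Dner* and *Ina*, known from neurons, fell with fold changes of -3.20, -2.80 and -2.64, *Ina* from 94.7, 103 and 78.9 to 10.3, 21.5 and 12.3 CPM. *Slc40a1*, the iron exporter ferroportin, fell from 39.1, 58.8 and 33.4 to 8.88, 7.82 and 9.35 CPM (-2.33, SE 0.19, adjusted p = 7.8e-08). *Chdh*, choline dehydrogenase, which acts in betaine synthesis, fell from 22.7, 27.0 and 17.0 to 3.92, 4.47 and 4.31 CPM (-2.39, SE 0.27, adjusted p = 2.2e-06). *Rhof*, *Trim2*, *Car12*, *Plcxd1*, *Map7d3* and *Fermt1* completed the set with *Myc* and *Egr1*, at -2.34 to -2.88.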

How the data were processed

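RNA was purified with TRIzol and libraries were made with the NEBNext Ultra II Directional kit. The submitters' processing notes name Trim Galore, FastQC, STAR and mm10. The counting tool, its strand setting and the annotation release are not given in the sources used here, so reads of overlapping, antisense or near-identical genes may not be separated. The authors deposited raw counts for 55536 Ensembl genes in 15 samples. All identifiers matched GENCODE M21, the source of symbols and coordinates, and promoter sequences came from RefSeq.

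Counts were fitted with edgeR 4.0.16 in R 4.3.3 (quasi-likelihood, TMM, filterByExpr with a minimum of 10 counts, 1 coefficient per group over all 15 samples), and p-values were Benjamini-Hochberg adjusted over the 18090 genes tested. The study's methods name DESeq2 (1.42.0 here), which was an alternative. Other alternatives were scaling by DESeq2 size factors or the upper quartile, no filter, the replicate number as a block, fewer samples, no fold limit and each sample left out. Scripts were tested on simulated counts. Errors are SE of the fit. In the 6 samples compared, 3 counts correspond to at most 0.104 CPM.

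Named genes were those of 29 lists plus the 15 highest and 15 lowest protein-coding genes among called genes whose days did not overlap and whose mean reached 100 counts. For symbols with 2 identifiers the one with more counts was used, and *Gcna* was not matched. Several genes are not reported here. The lists and members were chosen with earlier results of these data known. Of the tested genes, 67.7% had a promoter window, under the 80% needed for a comparison of motif shares, so no test of motif shares was made.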

Additional observations from a re-analysis of the deposited data

How the results depend on the processing

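Numbers of called genes stayed within 1.5 times of the reported ones under DESeq2 (2129 higher and 543 lower), DESeq2 size factors, upper-quartile scaling, no filter on low counts, a fit of the 6 samples (1688 and 342) or of the 9 PGCLC samples, and with a sample left out, when they ran from 1627 to 1948 higher and from 424 to 637 lower. Scaling moved the median fold change of all genes by at most 0.05 on the log2 scale. Without the fold limit, 3522 genes were higher and 3301 lower, with 116 list members lower. Leaving out a sample gave 96 to 106 higher and 24 to 44 lower list members, against 112 and 29, the 44 being without D6PGCLC replicate 2. In lists with few calls, 1 sample often moved the count by over 1.5 times, as for trophoblast (2 lower, 0 without D2PGCLC replicate 2), imprinted genes (2 lower, 0 to 4), glycolysis and hypoxia (0 lower, 3 without D6PGCLC replicate 2) and heart and muscle (1 lower, 4 without D6PGCLC replicate 2). Same-numbered samples of the days were not paired by any source, and their deviations correlated at 0.01, 0.18 and 0.03. A replicate block gave 1920 higher and 496 lower genes, with 107 and 31 list members. The mean number of genes detected was 22072 in D2PGCLCs (21351 at a common depth, 15442 with at least 10 counts) and 22183 in D6PGCLCs (16841 with at least 10 counts, and 24244 without replicate 1, an alternative chosen after seeing the data).

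Of the 146 called genes named, 112 kept their call in every setting that tested them, and none changed sign. There were 14 settings. Among the 112, *Egr3* and *Hnf4a* were tested in only 12 of them and *Zscan4d* in 13, so their calls could not be checked in the rest. Those that lost it without D6PGCLC replicate 1 were *Dab2*, *Dnd1*, *Gcm1*, *Hormad1*, *Hspa1a*, *Hspa1b*, *Lama1*, *Majin*, *Mef2c*, *Nanos3*, *Nes*, *Nnat*, *Pou3f1*, *Rxrg*, *Syce3*, *Terb1*, *Vim* and *Zfp36*. Those that kept it there but lost it without another sample were *Asns*, *Atf3*, *Dusp4*, *Gata2*, *Gnmt*, *H19*, *Kif17*, *Meg3*, *Phlda3*, *Piwil2*, *Runx1*, *Sox11*, *Stra6*, *Tdrd1* and *Tex12*, and *Crabp2* lost it in the fit of 6 samples alone. The block ended the calls of *Asns*, *Lama1*, *Mef2c*, *Runx1* and *Syce3*. Reversals were confined to genes not called. *Uhrf1* turned to 0.0042 with DESeq2, 0.0037 with its size factors, 0.0479 with upper-quartile scaling and 0.0092 in the 6-sample fit. With a sample left out, fold changes that reversed ran from -0.19 to 0.33 for *Fos*, -0.0028 to 0.0639 for *Kit*, -0.87 to 0.74 for *Ldha*, -2.21 to 0.85 for *Mixl1*, -0.18 to 0.0695 for *Mki67*, -0.58 to 0.67 for *Rarb*, -0.25 to 0.13 for *Syce2*, -0.0777 to 0.0574 for *Uhrf1* and -0.0143 to 0.49 for *Zbtb16*. The cause was not tested. Genes under about 1 CPM rest on few counts and are the least certain, most of all in D6PGCLC replicate 1. That sample had 34476646 counts in total and 18061 genes detected. At a common depth it had 17933 genes, against 21045 to 23317 in the 14 other samples. What sets it apart was not tested.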

Other observations

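Several gene groups outside the lists were picked after their values were seen and are given as descriptions. On the X chromosome, 116 of 684 tested genes were higher in D6PGCLCs than in D2PGCLCs (17.0%), against 8.74% to 13.6% on each autosome, and 29 were lower (4.24%), against 1.00% to 4.05%. Members of germline multigene families on the X were among them: all 7 tested *Magea* genes, cancer-testis antigens, 11 of 22 tested *Rhox* homeobox genes and 3 of 4 tested *Fthl17* ferritin-like genes. Of 10 tested genes of the X-linked Xlr family, only 1 was higher (median 0.16). *Rhox2a* had 6.74, 4.77 and 9.36 CPM in D2PGCLCs and 27.3, 22.9 and 31.9 CPM in D6PGCLCs (1.97, SE 0.20, adjusted p = 1.1e-06), and *Rhox13* had 0.368, 1.15 and 0.450 and 2.63, 3.13 and 7.65 CPM (2.78, SE 0.50, adjusted p = 2.8e-04). *Rhox6* and *Rhox9*, already high in D2PGCLCs, had fold changes of -0.48 and -0.61 and were not called. Copies within these families are near-identical, so their reads may have been exchanged.

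Collagen genes were higher in 17 of 37 tested cases and lower in none (median log2 fold change 1.32). Over all genes tested, 10.9% were higher and 2.75% lower, which also holds as the background for the laminin, T-box and histone counts below. The basement membrane pair *Col4a1* and *Col4a2* rose from 6.59, 6.34 and 6.42 to 27.7, 34.3 and 26.6 CPM (2.19, SE 0.17, adjusted p = 3.5e-08) and from 3.40, 3.66 and 2.13 to 17.3, 18.6 and 16 CPM (2.50, SE 0.19, adjusted p = 4.2e-08), while *Col18a1* had 953, 867 and 924 and then 489.9, 444 and 464 CPM (-0.97, SE 0.07, adjusted p = 3.5e-08). Of 10 laminin genes, 2 were higher. *Tbx1*, a T-box factor of pharyngeal development, rose from 0.0919, 0.0358 and 0.0600 to 1.87, 2.55 and 1.93 CPM (adjusted p = 3.4e-06), and 5 of 11 tested T-box genes were higher. None of 47 tested genes of the histone clusters was higher and 10 were lower, but none exceeded 5.40 CPM in any of the 6 samples, and 8 of the 10 were at 0 in D6PGCLC replicate 1.

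The next groups are small, and their counts stand against 10.9% higher and 2.75% lower over all genes tested. Of 10 genes of choline and betaine metabolism, 4 were higher and 2 lower. *Bhmt*, *Bhmt2* and *Dmgdh*, adjacent on chromosome 13, were higher with 4.85 (SE 0.55, adjusted p = 2.7e-06) for *Bhmt2*, as was *Gnmt*, glycine N-methyltransferase (1.07, SE 0.29, adjusted p = 0.0069), and *Chdh* was among the lower genes. *Bhmt* and *Bhmt2* are similar in sequence. Among signal targets, *Dusp6* (-1.18, SE 0.09, adjusted p = 4.2e-08) and *Dusp4* (-1.08, SE 0.13, adjusted p = 6.5e-06) of 9 ERK feedback genes were lower, and *Id3* (-1.65, SE 0.14, adjusted p = 1.5e-07), *Id4* (-1.19, SE 0.17, adjusted p = 2.8e-05) and *Msx2* (-1.85, SE 0.44, adjusted p = 0.0031) of 9 BMP targets were lower. Of 7 Wnt targets *Nkd1* was higher (1.50, SE 0.25, adjusted p = 1.3e-04) and *Notum* lower (-1.53, SE 0.24, adjusted p = 6.7e-05).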
